A study of Mus musculus with 3 samples.

Results

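The genes Il7r, Kit, Flt3 and Cxcr4 encode surface receptors of blood progenitors and early B-lineage cells. Their chromatin was examined in a mouse model of precursor B-cell acute lymphoblastic leukaemia, grown in culture, in which the fusion kinase Bcr-Abl drives the disease. Members were the deposited peaks that overlap 1 of 4 windows of the mouse build mm9. The windows were set around these genes by position and not by a cut on any measured value. Earlier results of these data were known when they were chosen. The windows were chr15:9410000-9490000 for Il7r, chr5:75940000-76080000 for Kit, chr5:148120000-148240000 for Flt3 and chr1:130450000-130530000 for Cxcr4. They held 27 peaks of 47610 in both lists. Of these, 20 were among the 29468 peaks of histone H3 acetylated at lysine 27 (H3K27ac) and 7 among the 18142 peaks of histone H3 trimethylated at lysine 4 (H3K4me3).

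Each mark was measured by chromatin immunoprecipitation and sequencing in 1 library, from untreated cells of the same leukaemia, and a library made with control immunoglobulin (IgG) was not analysed here. Both marks therefore describe 1 cell population in 1 state, with no second genotype, treatment or time. A single library per mark leaves the values below without replicate error, and no test between samples was made. Sequencing depth is unknown. Scores of peaks were assigned by the authors, and no source used here defines them. The most frequent score in both lists, 3100, is called the ceiling below, and 24.1% of H3K27ac peaks and 50.3% of H3K4me3 peaks lay at or above it. No mm9 annotation was used, so peaks were not assigned to start sites, exons or introns, the labelled cell type was not checked against marker genes, and ligands and signalling partners of the 4 receptors were not examined.

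Il7r is the alpha chain of the interleukin-7 receptor. With the common gamma chain it activates the kinases Jak1 and Jak3 and the factor Stat5, and mouse B-cell precursors depend on it. Kit and Flt3 are related receptor tyrosine kinases. Kit binds stem cell factor and marks stem cells, early progenitors and mast cells, whereas Flt3 binds Flt3 ligand, marks lymphoid-primed progenitors and in mice is repressed by Pax5 on commitment to the B lineage. Cxcr4, a G-protein-coupled receptor for the chemokine Cxcl12, holds B-cell precursors in the bone marrow. H3K4me3 is typical of promoters, most strongly of those rich in CpG dinucleotides, and H3K27ac of active promoters and enhancers.

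The promoter sequences of the 4 genes are shown because H3K4me3 is known to follow CpG content and the genes differ in it. Whether CpG content relates to the peaks of these windows was not tested. The promoters are RefSeq sequences of build GRCm38.p6, which is not the build of the peaks, and the peaks were therefore not placed on them. Each runs 5′ to 3′ on the strand of its gene, from 250 bases before the annotated start to 50 bases after it, with every CpG in capitals. They lie at chr15:9529827-9530126 (minus strand), chr5:75574737-75575036 (plus strand), chr5:147400440-147400739 (minus strand) and chr1:128592250-128592549 (minus strand). All 4 genes had an entry, and for Kit the first of 2 start sites is shown.
Il7r: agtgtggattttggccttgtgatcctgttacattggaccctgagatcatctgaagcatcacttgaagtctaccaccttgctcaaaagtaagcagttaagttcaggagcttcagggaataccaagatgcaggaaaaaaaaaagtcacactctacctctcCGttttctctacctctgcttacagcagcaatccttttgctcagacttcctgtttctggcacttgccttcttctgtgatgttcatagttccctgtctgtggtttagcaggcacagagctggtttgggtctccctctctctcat
Kit: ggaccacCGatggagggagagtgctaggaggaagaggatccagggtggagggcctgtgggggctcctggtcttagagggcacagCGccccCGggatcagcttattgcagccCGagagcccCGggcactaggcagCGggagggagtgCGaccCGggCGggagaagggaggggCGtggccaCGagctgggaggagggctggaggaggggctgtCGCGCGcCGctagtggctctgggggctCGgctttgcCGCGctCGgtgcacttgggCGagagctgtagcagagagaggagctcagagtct
Flt3: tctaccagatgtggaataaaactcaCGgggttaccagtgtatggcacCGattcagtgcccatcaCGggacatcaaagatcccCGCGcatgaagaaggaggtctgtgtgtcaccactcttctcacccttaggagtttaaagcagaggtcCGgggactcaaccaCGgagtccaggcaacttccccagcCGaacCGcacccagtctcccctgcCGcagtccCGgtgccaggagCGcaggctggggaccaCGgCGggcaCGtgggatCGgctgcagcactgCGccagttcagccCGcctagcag
Cxcr4: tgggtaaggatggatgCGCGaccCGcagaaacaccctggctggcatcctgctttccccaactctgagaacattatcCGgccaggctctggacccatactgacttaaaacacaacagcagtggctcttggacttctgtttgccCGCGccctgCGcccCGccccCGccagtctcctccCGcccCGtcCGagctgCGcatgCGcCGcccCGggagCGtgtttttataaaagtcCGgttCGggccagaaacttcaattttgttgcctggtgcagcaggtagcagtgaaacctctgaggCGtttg

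The Il7r promoter held 1 CpG and had a GC content of 45.7%, and 5.43% of the 32851 promoters in the table had fewer CpGs. The other 3 held more, with 20 CpGs for Kit, 18 for Flt3 and 20 for Cxcr4, against a median of 7 over the table. Of the promoters in the table, 73.5% had fewer CpGs than Kit or Cxcr4, and 70.3% had fewer than Flt3. Kit had the highest GC content, 69.0%, followed by Flt3 with 61.0% and Cxcr4 with 59.3%. Observed over expected CpG was 0.07 for Il7r, 0.62 for Kit, 0.65 for Flt3 and 0.77 for Cxcr4. The letters TATAAA, searched on both strands and found in 13.6% of promoters, occurred in the Cxcr4 promoter at position -30 from the start, overlapping a match on the other strand, and not in the other 3. The spaced palindrome TTCNNNGAA, the form of a Stat5 site and present in 8.30% of promoters, occurred in the Il7r promoter at position -142 and not in the other 3. The letters GGGCGG, also searched on both strands, were found in 35.7% of promoters. They occurred in the Kit promoter at position -98 and 3 times on the other strand of the Cxcr4 promoter, and not at Il7r or Flt3. These matches describe letters in a window and show no binding.

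The windows of Il7r, Flt3 and Cxcr4 each held peaks of both marks, and the Kit window held none. H3K27ac peaks numbered 5 in the Il7r window, 7 in the Flt3 window and 8 in the Cxcr4 window, and H3K4me3 peaks numbered 1, 4 and 2 in the same order. H3K27ac covered 17.8 kb (22.2% of the window) at Il7r, 16.2 kb (13.5%) at Flt3 and 20.5 kb (25.6%) at Cxcr4. H3K4me3 covered 4.51 kb (5.63%), 5.63 kb (4.69%) and 4.34 kb (5.42%). The H3K27ac length was thus 3.95 times the H3K4me3 length at Il7r, 2.88 times at Flt3 and 4.72 times at Cxcr4.

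**Figure D1:**
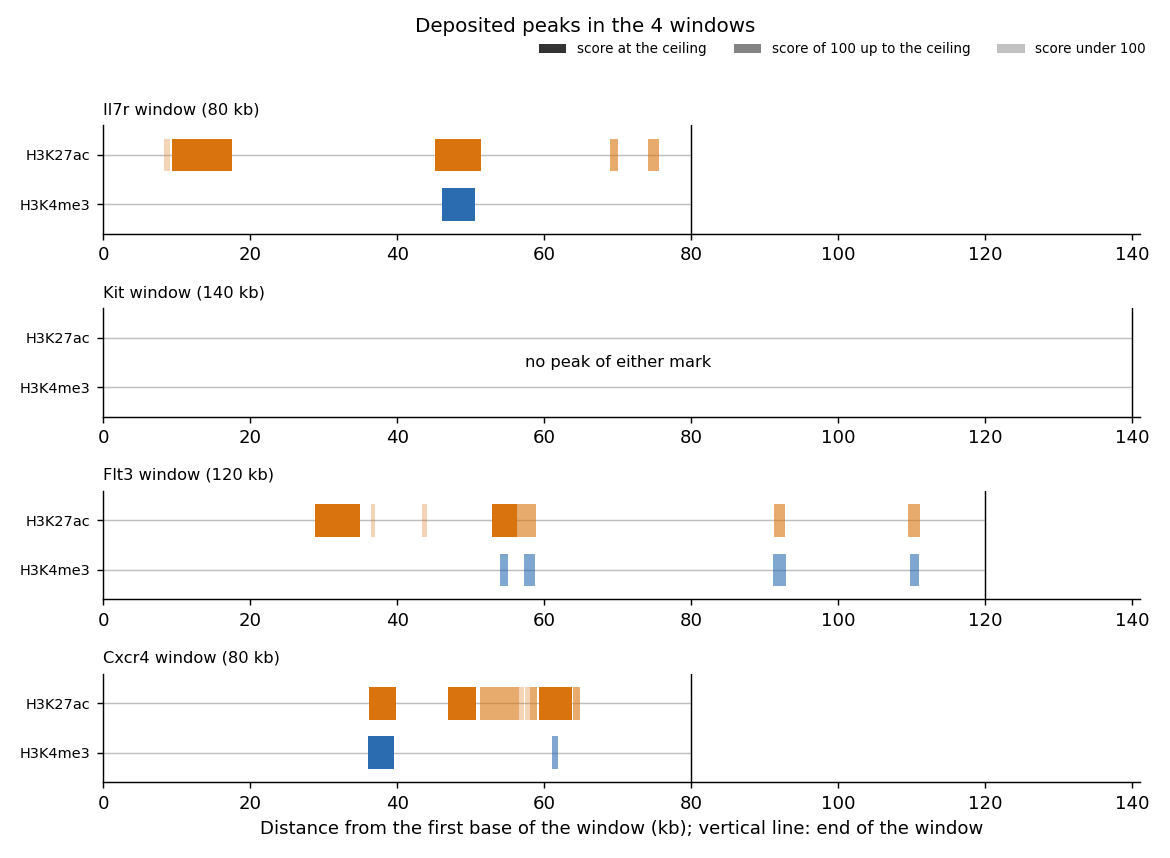
Peaks of H3K27ac (orange) and H3K4me3 (blue) in the 4 windows; the horizontal axis is the distance from the first base of the window in kb, each block is a peak to scale and darker blocks have higher scores. The Il7r window holds 5 and 1 peaks, the Flt3 window 7 and 4 and the Cxcr4 window 8 and 2, while the Kit window holds none.

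All 7 H3K4me3 peaks overlapped an H3K27ac peak, against 86.1% of the whole H3K4me3 list. Of the 20 H3K27ac peaks, 7 overlapped H3K4me3 (35.0%, exact 95% binomial interval 15.4 to 59.2%), against 52.3% of the whole H3K27ac list, a share inside that interval. The interval covers counting error only and treats the 20 peaks as independent. In the Cxcr4 window, 7 of them formed 1 run with gaps of at most 538 bp, and 6 of those had no H3K4me3. By length, 25.8% of the H3K27ac in the windows was shared with H3K4me3, against 45.7% in the whole list. For H3K4me3 the shared part was 97.2% in the windows and 84.3% in the list. A score at the ceiling was held by 7 of the 20 H3K27ac peaks, against 24.1% of the list at or above it, and by 2 of the 7 H3K4me3 peaks, against 50.3%. Scores under 100 were held by 5 of the 20 H3K27ac peaks, against 17.7% of the list. Median widths were 1539.5 bp in the windows and 1782 bp in the list for H3K27ac, and 1434 and 1807 bp for H3K4me3. Widths of at least 4000 bp were reached by 5 of the 20 H3K27ac peaks, against 10.9% of the list, and by 1 of the 7 H3K4me3 peaks, against 5.83%. The wide peaks described next thus lay beside narrow ones.

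**Figure D2:**
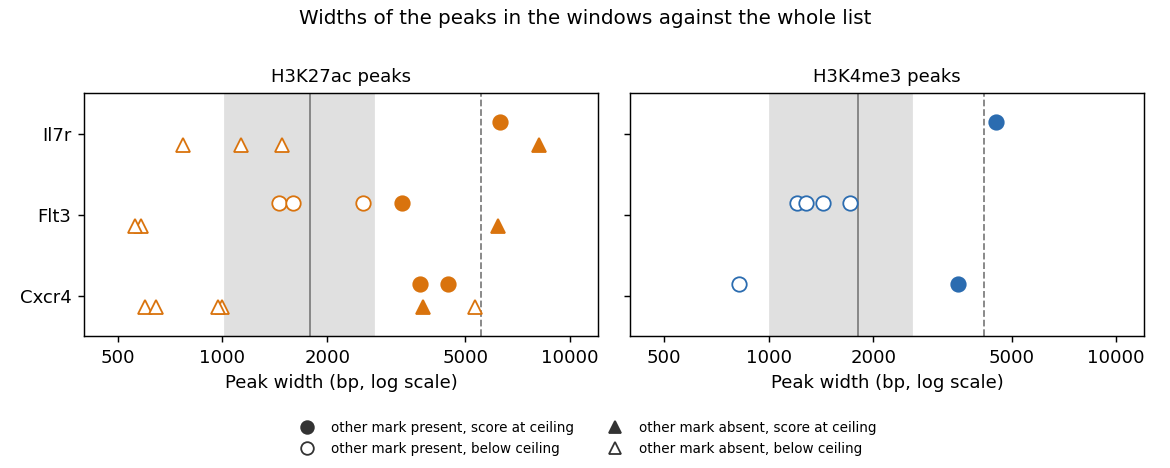
Width of every peak in the windows that hold peaks, on a log scale in bp, for H3K27ac (left) and H3K4me3 (right); grey bands are the middle 50% of each whole list, solid lines its median and dashed lines its 95th percentile. Circles overlap the other mark, triangles do not, and filled symbols have a score at the ceiling; the widest is the 8122 bp H3K27ac peak of the Il7r window, a filled triangle.

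The Il7r window held 1 H3K4me3 peak, at chr15:9456089-9460595. It was 4507 bp wide with a score at the ceiling, and 96.4% of the H3K4me3 list was narrower. It was the widest H3K4me3 peak of the 4 windows. The H3K27ac peak chr15:9455104-9461387, 6284 bp wide and also at the ceiling, enclosed it, reaching 985 bp further on the left, towards lower coordinates, and 792 bp further on the right. A second H3K27ac peak at the ceiling, chr15:9419355-9427476, had no H3K4me3. At 8122 bp it was the widest member, ranked 527 of 29468 by width, and lay 25.4 kb from the nearest H3K4me3 peak.

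The remaining 3 H3K27ac peaks of the Il7r window had low scores and no H3K4me3. A 769 bp peak with a score of 89.7 (chr15:9418285-9419053) ended 301 bp before the 8122 bp peak. On the other side of the H3K4me3 peak lay a 1133 bp peak with a score of 175 (chr15:9478927-9480059) and a 1482 bp peak with a score of 170 (chr15:9484182-9485663). The acetylated stretches that held ceiling scores were thus 2, separated by 27.6 kb with neither mark. Just outside the window were H3K27ac peaks with scores of 66.1, 10.7 kb before it, and 482, 11.2 kb after it. In GRCm38.p6 the coding neighbours of Il7r are Capsl and Spef2, and these flanking peaks were not assigned to any gene.

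In the Flt3 window H3K4me3 was spread over 4 narrow peaks, none at the ceiling. They measured 1204, 1434, 1710 and 1283 bp and scored 1106, 663, 1020 and 1066 from left to right. Each was narrower than the list median of 1807 bp, and between 36.1 and 40.8% of the list scored lower. The leftmost pair, chr5:148173931-148175134 and chr5:148177247-148178680, each lay inside a separate H3K27ac peak. Those H3K27ac peaks, chr5:148172959-148176233 (3275 bp, at the ceiling) and chr5:148176333-148178869 (2537 bp, score 3046), were 99 bp apart. They were 2.72 and 1.77 times as wide as the H3K4me3 peaks within them.

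The remaining H3K4me3 peaks of the Flt3 window, further to the right, lay in narrower and lower-scoring acetylation. At chr5:148211139-148212848 H3K4me3 was the wider mark: the H3K27ac peak chr5:148211295-148212750 measured 1456 bp, 0.85 times the H3K4me3 width, lay wholly within it and scored 312. It was the lowest-scoring of the 7 H3K27ac peaks that overlapped H3K4me3. At chr5:148229706-148230988 the H3K27ac peak chr5:148229501-148231097 measured 1597 bp and scored 1065. The H3K27ac peaks of this window with scores near or at the ceiling therefore lay at the leftmost pair of H3K4me3 peaks and at a site with no H3K4me3. That site, chr5:148148784-148155000, was 6217 bp wide, at the ceiling and 18.9 kb from the nearest H3K4me3 peak, and 96.3% of the H3K27ac list was narrower. Between it and the leftmost pair lay 2 peaks of 583 and 562 bp with scores of 53.8 and 50.8, close to the lowest score in the list, 50.01.

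The edge of the Flt3 window bears on its contents. An H3K27ac peak of 3962 bp (chr5:148240530-148244491) and an H3K4me3 peak of 3964 bp (chr5:148240704-148244667), both at the ceiling, began 529 and 703 bp beyond its end and are not members. On the other side the nearest H3K27ac peak was 229.1 kb and the nearest H3K4me3 peak 120.4 kb before the window. In GRCm38.p6 the coding neighbours of Flt3 are Urad and Pan3. Which gene the peaks near the edge belong to was not tested.

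The Cxcr4 window combined 1 site with both marks at the ceiling and a dense acetylated cluster. The H3K4me3 peak chr1:130486039-130489554 was 3516 bp wide and at the ceiling, and 90.5% of the list was narrower. The H3K27ac peak chr1:130486185-130489885, 3701 bp and at the ceiling, was shifted to the right relative to it. It began 146 bp after the H3K4me3 peak, ended 331 bp after it and was 1.05 times as wide. The remaining 7 H3K27ac peaks began 7.06 kb further on and formed a run from 130496942 to 130514855. Peaks covered 93.6% of its 17.9 kb.

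Within this run the 6 gaps between peaks ranged from 5 to 538 bp in length. The run was led by chr1:130501247-130506583 (5337 bp, score 2074), chr1:130509269-130513715 (4447 bp, at the ceiling) and chr1:130496942-130500708 (3767 bp, at the ceiling). The other 4 measured 600, 643, 999 and 968 bp and scored 80.7, 69.0, 179 and 116. When H3K27ac peaks within 1000 bp were joined, the run became a single region that ranked 105 of 25365 by summed peak length. H3K4me3 within it was limited to chr1:130511065-130511887, 823 bp wide with a score of 107, the narrowest and lowest-scoring H3K4me3 member. The H3K27ac peak around that site was 5.40 times as wide. Outside the window the nearest peaks were a site of both marks 3.69 kb before it, with an H3K27ac score of 422, and an H3K27ac peak of 4286 bp 17.9 kb after it, with a score of 2196. In GRCm38.p6 the coding neighbours of Cxcr4 are Dars and Thsd7b.

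A feature shared by the Il7r, Flt3 and Cxcr4 windows was 1 H3K27ac peak at the ceiling without H3K4me3. At Cxcr4 this peak ended 538 bp before the next peak of the run, and the run contains an H3K4me3 peak. There the feature thus depends on how the run was divided when called. Ceiling H3K27ac peaks without H3K4me3 made up 3 of the 20 H3K27ac members, against 2.21% of the list (652 peaks). With the chromosomes tiled into stretches of the same length, 5.12% of 80 kb tiles and 6.16% of 120 kb tiles that had a peak of either mark held one. Over all tiles, empty ones included, the shares were 1.98 and 2.84%. Among the 652 peaks of this kind, the Il7r peak ranked 82 by width, the Flt3 peak 169 and the Cxcr4 peak 513, with a median width of 4900.5 bp for the whole class. Their distances to the nearest H3K4me3 peak, 25.4 kb at Il7r, 18.9 kb at Flt3 and 7.39 kb at Cxcr4, lay around the class median of 19.0 kb. The windows were set around genes and the tiles were not, so these shares describe the windows and do not set them apart from windows of other genes.

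Over longer distances the H3K27ac peaks of the Il7r, Flt3 and Cxcr4 windows differed in how far they ran together. H3K27ac peaks within 10000 bp were stitched, and 6.61% of the 17370 regions exceeded 10.01 kb of summed peak length, the limit for a long region, set where the scaled rank curve reaches a slope of 1. The 8 peaks of the Cxcr4 window formed 1 region of 28.7 kb with 20.5 kb of summed length. It ranked 252 by summed length and contained both H3K4me3 peaks of the window. At Flt3 the 5 leftmost peaks formed a long region of 30.1 kb with 13.2 kb of summed length, ranked 677, and the other 2 fell into separate regions below the limit, of which 1 ran on past the window to 148247704. At Il7r no region was long. The 8122 bp peak and its neighbour summed to 8.89 kb and ranked 1421, and the peak around the H3K4me3 site, 6.28 kb, ranked 2426. These ranks and the limit depend on the stitching distance: within 12500 bp the limit was 11.2 kb, the largest regions of Cxcr4, Flt3 and Il7r ranked 311, 776 and 1539 of 16134, and the same windows held a long region.

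**Figure D3:**
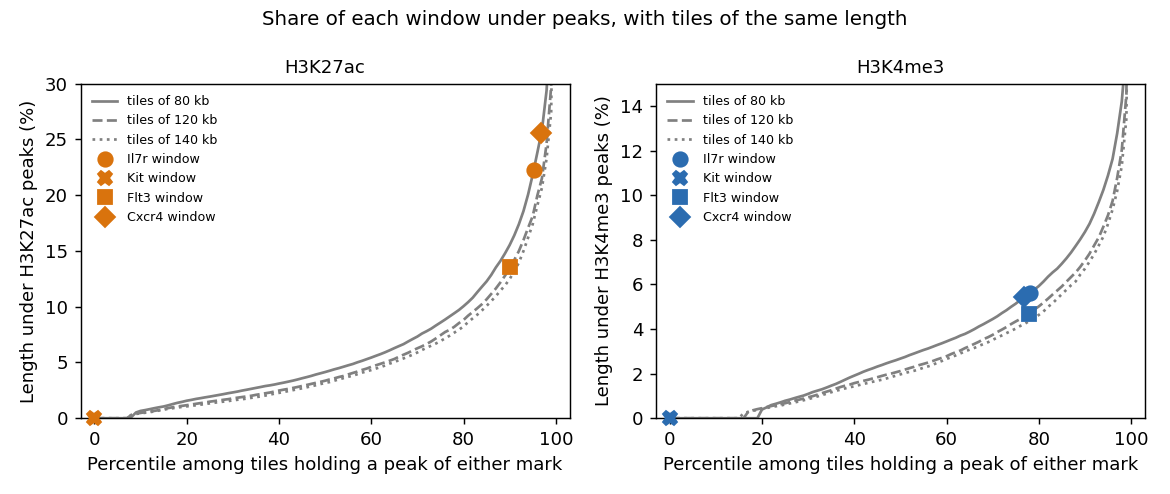
Percent of each window under peaks (vertical axis) against its percentile among tiles of the same length that hold a peak of either mark (horizontal axis), for H3K27ac (left) and H3K4me3 (right); grey lines are the tiles, with their highest values beyond the axis. The Cxcr4, Il7r and Flt3 windows lie at 25.6, 22.2 and 13.5% for H3K27ac and at 5.42, 5.63 and 4.69% for H3K4me3. The Kit window is empty, so it has no place among such tiles and is drawn at 0 on both axes.

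The shares of the Il7r, Flt3 and Cxcr4 windows under H3K27ac lay in the upper range of tiles of their size, and those under H3K4me3 less far up. The Kit window was at 0 for both, as were 54.3% of all 140 kb tiles for H3K27ac and 58.5% for H3K4me3. The tiles were not set around genes, as the windows were. Among 12428 tiles of 80 kb with a peak of either mark, 3.15% had at least the H3K27ac cover of the Cxcr4 window and 4.79% at least that of the Il7r window. For Flt3 the share was 9.89% of 9853 tiles of 120 kb. At least the H3K4me3 cover of these windows was found in 23.2% of tiles for Cxcr4, 21.8% for Il7r and 22.2% for Flt3. Median H3K27ac cover of such tiles was 4.14% at 80 kb and 3.36% at 120 kb. Median H3K4me3 cover was 2.67% and 2.12%.

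No peak of either mark lay in the 140 kb Kit window. The stretch with neither mark around it ran over 731.4 kb, chr5:75712639-76444062, and reached 227.4 kb before the window and 364.1 kb after it. It was bounded by low-scoring H3K4me3 peaks, of 775 bp with a score of 112 on the left and of 610 bp with a score of 73.8 on the right. The nearest H3K27ac peaks were 498.9 kb before the window (1745 bp, at the ceiling) and 364.3 kb after it (844 bp, score 196). Of 31406 such stretches between peaks, 682 were longer, and the median was 16.6 kb. Stretches at least this long nevertheless made up 38.0% of all length without peaks.

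An empty stretch of the window's own length, 140 kb, is common by itself: 50.9% of 140 kb tiles held neither mark. This share does not apply to the whole 731.4 kb stretch around the window. The tiles were not set around genes, so this share does not tell how common an empty window around a gene is. In GRCm38.p6 the coding neighbours of Kit are Pdgfra and Kdr, also receptor tyrosine kinases, and whether the stretch without peaks reaches them was not tested. Absence from the lists means that no peak passed the authors' threshold. Signal below it was not analysed here, and with the depth unknown the window cannot be called free of either mark.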

How the data were processed

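H3K27ac and H3K4me3 were each profiled in 1 library from cultured Bcr-Abl mouse precursor B-cell leukaemia cells, and titles gave the groups. The authors called peaks with MACS on build mm9, per the submitters' processing notes. The sources used here do not name its version, the aligner, the filters, the control or the number of reads. The deposited score of each peak is the authors' own value, and the scale is not defined. It was used within a list only. Scores of exactly 3100 were held by 6863 H3K27ac and 9042 H3K4me3 peaks, and 243 and 75 scores were higher. Starts and ends of deposited peaks were read as BED and are printed counted from 1.

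A peak belonged to a window, or to a peak of the other mark, when they shared at least 1 bp. All peaks of the 4 windows are described, the widest and highest-scoring in full. Tiles ran from the first to the last peak of each chromosome, without unplaced contigs. H3K27ac peaks were stitched within 12500 bp and then within 10000 bp, the distance reported, both chosen after the data were seen, and long regions taken above the point of slope 1 on the scaled rank curve. Promoter letters came from the RefSeq table of GRCm38.p6. The members, windows and settings were chosen with earlier results of these data known. Overlap, joining and window counts were tested on simulated data. Alternatives covered score, window edges, joining and overlap. Software was SciPy 1.17.1, pandas 2.3.3, NumPy 2.4.6 and Matplotlib 3.10.9 in Python 3.11.15.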

Additional observations from a re-analysis of the deposited data

How the results depend on the processing

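Of 64 alternative values for 21 results, 49 stayed within 1.5 times the reported count or within the exact 95% binomial interval of the reported percent. The other 15 moved outside these limits. The 49 include values that could not move, so the tally overstates stability. These are the values of the empty Kit window and those for peaks wholly inside the windows. The binomial interval treats bases as independent and is therefore narrow. The Kit window stayed at 0 for both marks under each alternative run, including windows widened by 50 kb. This outcome was fixed beforehand and adds no support. A score minimum, joining or a rule on window edges cannot add a peak. The stretch without peaks reached 227.4 kb before the window and 364.1 kb after it, further than the widening. With scores of at least 100, H3K27ac cover became 21.3% at Il7r, 12.6% at Flt3 and 24.0% at Cxcr4. With peaks within 1000 bp joined, the Cxcr4 window held 2 H3K27ac peaks in place of 8, so its peak number depends on how the run was divided when called. With windows widened by 50 kb on either side, H3K27ac peaks numbered 13 at Il7r, 11 at Flt3 and 14 at Cxcr4, with cover of 17.8, 13.1 and 18.3%. H3K4me3 peaks then numbered 3 at Il7r and 4 at Cxcr4, with H3K4me3 cover of 3.62% at Il7r, 4.36% at Flt3 and 3.54% at Cxcr4. The number of H3K27ac members overlapping H3K4me3 was 7, and 6 after joining. Joining also lowered the number of H3K27ac members from 20, to 4 at Il7r, 6 at Flt3 and 2 at Cxcr4. The overlapping share was therefore higher after joining than the reported 35.0%, and the matching share of the joined list was not computed. Stitching H3K27ac peaks within 12500 bp, an alternative chosen after seeing the data, left 1 long region each at Flt3 and Cxcr4 and 0 at Il7r and Kit. Taking peaks wholly inside the windows changed no value, because no member crossed a window edge. No paired analysis was possible because each mark has 1 library and no test was made. Depth is unknown and limits what an empty window can show.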
